A study of Mus musculus with 4 samples.

Results

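Oligodendrocyte precursors that had taken up the thymidine analogue EdU but read few genes of the cell cycle were the largest class of nuclei in the EdU+ sort of the adult mouse hippocampus. They were chosen by a rule on read counts: at least 3 of 8 precursor markers on, fewer than 2 of 4 genes of committed precursors on, and fewer than 2 of 10 cell cycle genes on. A gene was on in a well at 10 or more reads and at 100 or more per 1e+06 reads of all genes in the well. Levels are given in CPM, the reads of a gene scaled to 1e+06 reads of nuclear-encoded genes in the well or pool. The rule was met by 354 of 728 EdU+ wells kept at a minimum of 300 genes and 20000 reads, out of 1430 kept wells in the 4 libraries of the series. EdU+ Fasn-R1812W held 191 of these nuclei and EdU+ WT held 163. Because the values of the rule genes chose them, those values are given as a description and nothing was tested on them.

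The study compared Fasn-R1812W mice, in which 1 residue of the palmitate-making enzyme fatty acid synthase is substituted, with wild-type (WT) mice. Animals of both genotypes were 8.5 months old, and each genotype gave 1 library of 384 wells per gate. For the EdU+ gate, used here, both genotypes received intraperitoneal EdU for 3 days, in 2 injections of 100 mg per kg each day, and hippocampal nuclei were isolated on day 4, labelled for EdU and sorted singly for Smart-seq2, a plate method without molecular identifiers. The NeuN+ gate took nuclei stained for a neuronal protein and serves only as a check. How many animals were pooled in a library is not given in the sources used here. With 1 library per genotype no difference between genotypes has a replicate check, no p-value was computed, and "higher" and "lower" below describe these libraries. Intervals are exact, at 95%, and give only the counting error, because PCR copies of a molecule are not independent.

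Oligodendrocyte precursors are the main dividing glia of the adult brain. They carry the PDGF alpha receptor and the NG2 proteoglycan, are contacted by neurons through glutamate and GABA receptors, and either remain precursors after a division or leave the cycle and differentiate. Precursors that commit to differentiation pass through a stage marked by the receptor Gpr17 and the sialidase Neu4 and by loss of Pdgfra, before myelin genes are switched on. EdU stays in DNA after the cell has divided, so an EdU+ nucleus need not be in cycle when it is isolated.

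Depth differed between the libraries and touches every genotype value that follows. The EdU+ Fasn-R1812W library held 96597804 reads and the EdU+ WT library 36368990. The filter on reads removed 8 Fasn-R1812W and 12 WT wells, and the filter on genes 0 and 25. Members held from 27210 to 1009600 reads with a median of 189936 in Fasn-R1812W, and from 20061 to 266612 with a median of 88476 in WT. The median member had 2966 genes read in Fasn-R1812W and 1031 in WT, and 1453 and 929 after every well was thinned to 20000 reads. Gene detection was therefore higher in Fasn-R1812W members at equal depth too.

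The share of EdU+ wells that met the rule was 50.8% (45.6 to 56.0) in Fasn-R1812W and 46.3% (41.0 to 51.7) in WT, and these intervals overlap. After thinning, 196 of 376 Fasn-R1812W wells (52.1%) and 161 of 352 WT wells (45.7%) met it, of which 188 and 157 also met it at full depth. Precursors in cycle, which had at least 2 cycle genes on, were 12 wells in each library, or 3.19% in Fasn-R1812W and 3.41% in WT. Committed precursors, with at least 2 of the 4 committed genes on, were 46 wells (12.2%) in Fasn-R1812W and 56 wells (15.9%) in WT. The remaining 127 Fasn-R1812W and 121 WT wells met none of these rules. In the NeuN+ gate the same rule was met by 1 of 352 Fasn-R1812W and 1 of 350 WT wells.

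Many members lay just inside the limits on committed and cycle genes, and few wells lay just outside the limit on cycle genes. Of the members, 18 in Fasn-R1812W and 41 in WT had exactly 3 precursor markers on, while 9 and 19 wells with exactly 2 lay just outside. A single committed gene was on in 132 Fasn-R1812W and 89 WT members, and exactly 2 were on in 43 and 50 wells just outside. A single cycle gene was on in 88 Fasn-R1812W and 56 WT members, and exactly 2 were on in 5 in-cycle wells of each library. Only 30 Fasn-R1812W and 45 WT members had no gene of either list on.

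Levels of the 8 precursor markers of the rule describe the members and are no check of the label, because the rule chose wells on them. Pdgfra, the receptor for PDGF-A (chromosome 5, positions 75152292 to 75198215, plus strand, GRCm38), ranged over wells from 9.52 to 16170 CPM with a median of 2259 in Fasn-R1812W, and from 0 to 22886 CPM with a median of 2369 in WT. The wells of both libraries overlap over most of their ranges, and pooled levels were 2716 CPM in Fasn-R1812W and 3346 CPM in WT. Pdgfra was on in 92.1% of Fasn-R1812W and 87.7% of WT members, and 0 Fasn-R1812W but 14 WT members (8.59%) had no Pdgfra read. Those 14 WT wells entered through other markers, at a median of 642 genes read.

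The matrix and surface proteins of the rule followed. Tnr, which encodes the matrix glycoprotein tenascin-R, had a median of 1121 CPM in Fasn-R1812W members and 835 CPM in WT members, and was on in 90.1% and 89.0%. Vcan, encoding the proteoglycan versican, had medians of 1985 and 1039 CPM and was on in 83.2% of Fasn-R1812W and 68.7% of WT members. Cspg4, which encodes NG2, had medians of 571 and 207 CPM and was on in 70.2% and 52.8%. In both libraries Pdgfra and Tnr were on in the most members, followed by Vcan. Matn4, a matrilin, was on in 46.6% of Fasn-R1812W and 37.4% of WT members, and C1ql1, a secreted C1q-like protein, in 30.4% and 30.1%. Lhfpl3, a tetraspan-like membrane protein, was on in 68.6% and 55.2%, and Cacng4, an auxiliary subunit of AMPA receptors, in 61.3% and 53.4%. Tnr, Lhfpl3 and Matn4 overlap other counted genes in GENCODE M21, so some of their reads cannot be assigned with certainty. All 8 were less than 2-fold apart between the libraries by pooled CPM.

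**Figure D1:**
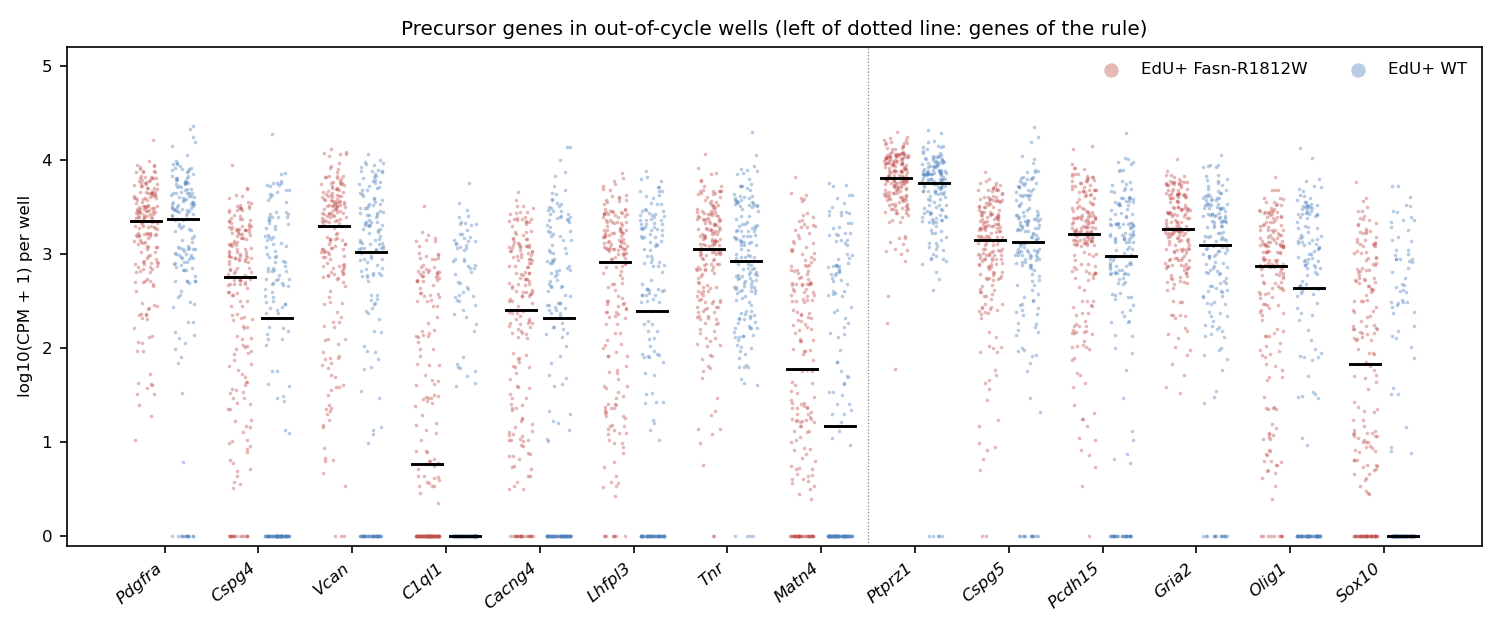
Each point is 1 member nucleus and the vertical axis is its level in CPM on a log scale, with wells without a read at the bottom, for EdU+ Fasn-R1812W beside EdU+ WT. Ptprz1 is read in nearly every member, with medians of 6477 CPM in Fasn-R1812W and 5695 CPM in WT, while Cspg4 spreads from 0 to 8907 and 18964 CPM.

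Genes that the rule did not use were also on more often in members than in the other EdU+ wells, and most of these marked precursors of the other states as well. Among 770 genes outside the rule that were on in at least 20% of members (averaged over both libraries, a limit set after the data were seen), 47 were on at least 30 percentage points more often in members than in the other EdU+ wells of both libraries, and 0 at least 30 points less often. Members and other wells were separated by precursor markers that go with these genes, so these counts describe the split and are no test of it. The limit of 20% was set on members alone, so genes of the other wells could hardly enter and the 0 was largely fixed by it. Of the 47 genes, 31 were also on at least 30 points more often in in-cycle precursors than in other wells of both libraries, 43 in committed precursors and 30 in both. Ptprz1, a receptor-type phosphatase with chondroitin sulphate chains, was on in 99.5% of Fasn-R1812W and 96.9% of WT members, against 37.0% and 36.4% of other wells. All in-cycle precursors of both libraries had it on, as did 100% of Fasn-R1812W and 98.2% of WT committed precursors. Its wells ran from 59.0 to 19948 CPM in Fasn-R1812W and from 0 to 20823 CPM in WT.

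Some genes of proteoglycans and adhesion proteins were among those outside the rule that most members had on. Cspg5, which encodes neuroglycan C, was on in 89.5% of Fasn-R1812W and 84.7% of WT members, with well medians of 1409 and 1338 CPM. Bcan, which encodes brevican, was on in 75.9% and 79.8% and stood at 1379 CPM pooled in Fasn-R1812W and 2327 CPM in WT. In committed precursors Bcan was on in 87.0% of Fasn-R1812W and 80.4% of WT wells. Pcdh15, a protocadherin best known from the tip links of hair cells, was on in 88.5% of Fasn-R1812W members, with wells from 0 to 14104 CPM and a median of 1634 CPM. In WT it was on in 75.5%, with wells from 0 to 19165 CPM and a median of 954 CPM. Pcdh15 was on in only 7.87% of other Fasn-R1812W wells and 12.4% of other WT wells. Cntn1, the adhesion protein contactin 1, was on in 78.0% of Fasn-R1812W and 75.5% of WT members, and Gjc3, a connexin of the oligodendrocyte lineage, in 78.0% and 58.3%.

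Transcription factors of the lineage were read less evenly. Olig1, a bHLH factor of the lineage, had wells from 0 to 6657 CPM with a median of 741 CPM in Fasn-R1812W members, and from 0 to 13523 CPM with a median of 432 CPM in WT members. It was on in 73.8% and 57.7%, against 7.87% of other Fasn-R1812W and 9.92% of other WT wells. Olig2, its relative, was on in 50.8% of Fasn-R1812W and 33.7% of WT members. Sox10, an HMG-box factor kept throughout the lineage, was on in 46.1% and 27.6%, and Sox6, which is lost on differentiation, in 48.2% and 38.0%. Each of these shares was lower in WT, where fewer genes were read per nucleus. Myrf, the factor that drives myelin gene transcription, was on in 2.09% of Fasn-R1812W and 2.45% of WT members, at 5.65 and 11.8 CPM.

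Markers of other cell types were also counted in the members. At least 3 of 12 astrocyte markers were on in 37 Fasn-R1812W members (19.4%) and 28 WT members (17.2%), against 11.0% and 10.7% of other EdU+ wells. The same held in 28.3% of Fasn-R1812W and 17.9% of WT committed precursors and in 16.7% of in-cycle precursors of each library, so it was not particular to members. The summed level of these markers in members was 2875 CPM in Fasn-R1812W and 3185 CPM in WT. At least 3 of 12 markers of mature neurons were on in 22 Fasn-R1812W members (11.5%) and 13 WT members (7.98%), against 8.66% and 9.09% of other wells. For mature oligodendrocytes this held in 6 and 3 members, for neuroblasts in 1 and 2, and for microglia in 2 and 0. Markers of endothelial cells, pericytes, leukocytes, ependymal cells and radial glia-like stem cells reached 3 on in 0 members of either library. Slc1a2, a glutamate transporter of astrocytes, was on in 56.0% of Fasn-R1812W and 49.1% of WT members, and Apoe, a lipid carrier, in 75.4% and 62.6%. No doublet caller was run, and the part of free RNA or of doublets in these values was not tested. Of 10 tested microglial markers, 8 were at least 2-fold higher in Fasn-R1812W members and 0 lower, where 21.9% of all genes were higher and 12.4% lower. Their median log2 ratio was 3.83. It was 3.94 over the 5 genes tested when members with at least 3 markers of another cell type on were left out. The list of 12 summed to 319 CPM in Fasn-R1812W and 79.1 CPM in WT members, where 4 of its genes had no read. A gene was tested when either library read it enough, so these counts and medians were largely set by the filter. C1qa, a complement gene of microglia, had 34.8 CPM in Fasn-R1812W and 0.0633 CPM in WT members, and a single Fasn-R1812W well held 71.9% of its reads there.

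**Figure D2:**
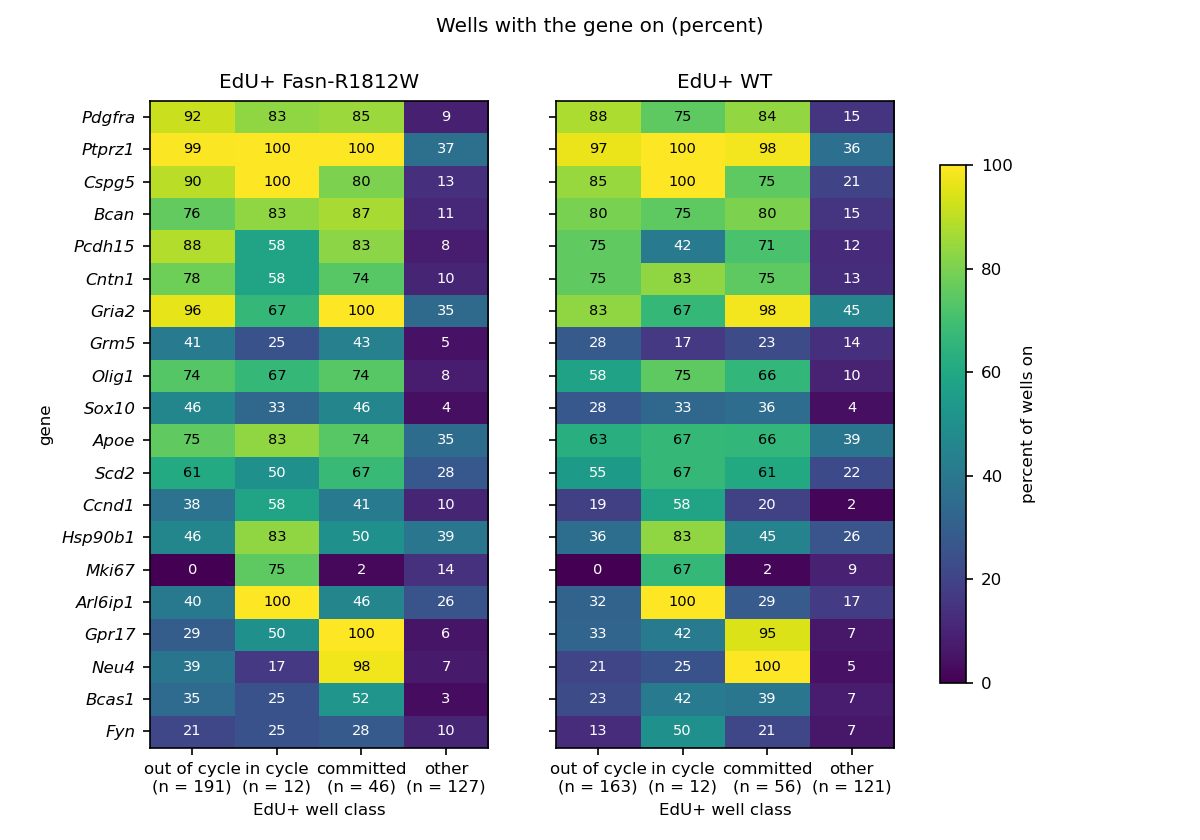
The shading and the printed value give the percent of wells in which a gene is on, for the members, in-cycle precursors, committed precursors and other EdU+ wells of each library. Ptprz1 is on in 99.5% of Fasn-R1812W and 96.9% of WT members against 37.0% and 36.4% of other wells, while Gpr17 and Neu4, which the rule used, are on in 100% and 97.8% of committed Fasn-R1812W precursors and 94.6% and 100% of WT ones.

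Members were not free of the genes of commitment. Gpr17, a receptor of the committed stage, was on in 56 Fasn-R1812W members (29.3%) and 53 WT members (32.5%), and Neu4, a sialidase, in 74 (38.7%) and 34 (20.9%). Bmp4, a ligand of that stage, was on in 2 Fasn-R1812W and 1 WT members, and Enpp6, a choline phosphodiesterase that marks newly formed oligodendrocytes, in 0 and 1. Gpr17 overlaps Lims2 on the opposite strand, and whether counting used strand is not given, so reads of the pair cannot be told apart. No committed gene was on in 59 Fasn-R1812W members (30.9%) and 74 WT members (45.4%).

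Tcf7l2 and Bcas1, which played no part in the rule, were compared between members with Gpr17 on and members with no committed gene on. Other genes of commitment outside the rule are not given for these subsets. Tcf7l2, a Wnt pathway factor of differentiating oligodendrocytes, was on in 16.1% of Gpr17-on members in Fasn-R1812W and 18.9% in WT, against 5.08% and 4.05% of members with no committed gene on. Bcas1, a marker of early myelinating cells, was on in 37.5% of Gpr17-on members in Fasn-R1812W and 30.2% in WT, against 32.2% and 14.9% of members with no committed gene on. The shares for Bcas1 were thus close together in Fasn-R1812W. Olig1 differed little between the same subsets, at 76.8% and 72.9% in Fasn-R1812W and 56.6% and 56.8% in WT. Members with Pdgfra off were 15 in Fasn-R1812W and 20 in WT. Bcas1 was on in 80.0% of the Pdgfra-off members of Fasn-R1812W, against 31.2% of those with Pdgfra on, but in 20% and 23.1% in WT, so the libraries differed in this. These are shares of wells within 1 library each, were not tested, and belong to genes picked after their values were seen.

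Among the cycle genes of the rule, those of mitosis were nearly unread. Mki67, the antigen of dividing cells, had 51 reads over all Fasn-R1812W members and 1 read over all WT members, or 1.14 and 0.0633 CPM, and was on in 0 of them. In-cycle precursors had it on in 9 of 12 Fasn-R1812W and 8 of 12 WT wells, at 1368 and 561 CPM. Top2a, a topoisomerase of dividing cells, was on in 1 Fasn-R1812W and 0 WT members, and Prc1, a protein of the mitotic spindle, in 7 and 3. The exception was Arl6ip1, a protein of the endoplasmic reticulum membrane, which was on in 77 Fasn-R1812W members (40.3%) and 52 WT members (31.9%). Arl6ip1 was also on in 59.9% of NeuN+ Fasn-R1812W and 68.3% of NeuN+ WT wells, nuclei sorted for a neuronal protein. It was on in all 12 in-cycle wells of each library, and each of the 5 wells per library that had exactly 2 cycle genes on counted it. Without Arl6ip1 among the cycle genes, a setting chosen after the data were seen, members came to 52.1% of Fasn-R1812W and 47.7% of WT wells and the in-cycle group to 7 wells in each library.

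Out-of-cycle precursors differed from in-cycle ones in genes outside the rule as well. The comparison was made within each library on pooled CPM with a prior of 1 CPM, and a gene counted only when it was at least 2-fold apart in the same direction in both libraries. A gene was tested, meaning compared, when either pool held it at 10 CPM or more with a read in at least 10% of wells. Of 4569 genes tested in both libraries, 753 (16.5%) were higher and 269 (5.89%) lower in out-of-cycle precursors. The median log2 ratio of all of them was 0.63 in Fasn-R1812W and 0.28 in WT, so list medians are to be read against those values. TMM scaling shifted every ratio by -0.47 in Fasn-R1812W and -0.04 in WT, and the calls became 616 higher and 367 lower, so that 62.7% of calls were higher in place of 73.7%. The rule split these wells by cycle genes, so the comparison is a description. The in-cycle group was 12 wells a library, and a ratio against a gene that those wells barely read depends on the prior. A gene that only 1 pool read enough was tested because it was high there. Counts of calls and list medians were therefore set in part by the filter.

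Receptors for glutamate stood higher out of cycle in both libraries. Gria2, the AMPA receptor subunit that sets calcium permeability (chromosome 3, positions 80681450 to 80802835, minus strand), had 2353 CPM in out-of-cycle and 809 CPM in in-cycle precursors of Fasn-R1812W, and 1984 and 757 CPM in WT. The log2 ratios were 1.54 and 1.39. It was on in 96.3% of out-of-cycle and 66.7% of in-cycle precursors in Fasn-R1812W, and in 83.4% and 66.7% in WT. The list of AMPA and kainate receptors and their partners had medians of 1.63 in Fasn-R1812W and 1.45 in WT over 10 genes tested, with 4 higher and 0 lower in both. These were Gria2 and the kainate subunits Grik1, Grik2 and Grik3, of which Grik3 had 93.8 CPM out of cycle and 0 in cycle in Fasn-R1812W, and 132 and 0.788 CPM in WT. Grik3 reached 10 CPM only out of cycle, so it was tested through the pool where it was high. NMDA and metabotropic receptors had medians of 1.68 and 2.28 over 5 genes, with 4 higher and 0 lower. Grm5, a metabotropic receptor, had 384 CPM out of cycle and 116 CPM in cycle in Fasn-R1812W, and 206 and 51.2 CPM in WT.

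Some channel and adhesion genes were higher out of cycle too. Sodium and calcium channels had medians of 1.30 in Fasn-R1812W and 1.12 in WT over 10 genes, with 3 higher and 0 lower in both. Potassium channels had no common direction, with medians of 0.58 in Fasn-R1812W and -0.20 in WT over 11 genes, 2 of them higher and 1 lower in both. Cacna1e, the pore of R-type calcium channels, was the gene furthest apart by the naming rule. It had 212 CPM out of cycle and 1.91 CPM in cycle in Fasn-R1812W, and 141 CPM out of cycle in WT, where in-cycle precursors had no read of it. Cacna1e thus reached 10 CPM only out of cycle and was tested through that pool, and the size of its ratio depends on the prior. Adhesion and guidance genes had medians of 0.94 and 1.44 over 21 genes, with 8 higher and 0 lower. Among them, Nlgn1, a neuroligin, had 398 and 53.5 CPM in Fasn-R1812W and 306 and 88.3 CPM in WT, out of cycle before in cycle. Unc5c, a netrin receptor, had 316 and 62.7 CPM in Fasn-R1812W and 585 and 116 CPM in WT in the same order. It was on in 30.9% and 8.33% of Fasn-R1812W wells and in 28.2% and 25% of WT wells. A single in-cycle well held 95.9% of its in-cycle reads in Fasn-R1812W and 47.6% in WT. Pcdh15 belongs to the precursor list outside the rule and had 2264 CPM out of cycle and 487 CPM in cycle in Fasn-R1812W, and 1859 and 544 CPM in WT. That list of 30 genes had medians of 0.24 and 0.06, below the median of all genes, with 3 higher (Pcdh15, Cdo1 and Ncan) and 1 lower (Ntn1). Under TMM scaling its medians were -0.23 and 0.02, so the list as a whole had no stable direction. Ncan was on in 45.5% of wells out of cycle and 41.7% in cycle in Fasn-R1812W. In WT it was on in 38.7% and 50%, so its share on went the other way from its pooled level there.

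Among genes of division outside the rule, those of G2/M were lower out of cycle. Of 6 tested G2/M genes, 5 were lower and 0 higher in both libraries, with medians of -4.19 in Fasn-R1812W and -3.66 in WT. Ccnb1, the cyclin of mitotic entry, had 0.919 CPM out of cycle and 182 CPM in cycle in Fasn-R1812W, and no read out of cycle and 43.4 CPM in cycle in WT. For DNA replication and G1/S, 4 genes were tested, of which 2 (Pcna and Gins2) were lower and 0 higher, with medians of -0.39 and -2.21. Pcna, the sliding clamp of DNA replication, had 11.8 and 246 CPM in Fasn-R1812W and 29.7 and 188 CPM in WT, out of cycle before in cycle. These genes follow the cycle genes that split the wells, so their direction was set in part by the rule. The list of D-type cyclins, their kinases and cell cycle inhibitors had medians of 0.56 in Fasn-R1812W and 1.84 in WT over 9 genes, beside 0.63 and 0.28 over all genes, with 2 of them higher and 1, Ccnd1, lower in both libraries. Ccnd1, the D-type cyclin of G1, was on in both states. Out of cycle it had 384 CPM and was on in 38.2% of wells in Fasn-R1812W, against 778 CPM and 58.3% in cycle. In WT it had 234 CPM and was on in 19.0% of wells out of cycle, against 484 CPM and 58.3% in cycle. Ccnd1 shares its locus with a gene on the opposite strand.

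Of the 781 genes on in at least 20% of members, 97 (12.4%) were higher out of cycle in both libraries and 5 (0.64%) lower. This limit looks at out-of-cycle wells alone and so removes genes that are low there, which makes the split more lopsided than the 753 and 269 over all genes. The 5 were Arl6ip1 and Ccnd1, the chaperone gene Hsp90b1, the phosphate carrier gene Slc25a3 and Tmcc1. Hsp90b1 had 556 CPM out of cycle and 1416 CPM in cycle in Fasn-R1812W, and 476 and 3229 CPM in WT. A single in-cycle well held 47.2% of its in-cycle reads in Fasn-R1812W and 51.1% in WT. For Slc25a3 a single in-cycle well held 85.5% and 39.8%. The most abundant gene among the 97 was Gm37376 (chromosome 19, positions 5801941 to 5802393, plus strand), with 19093 CPM out of cycle and 3452 CPM in cycle in Fasn-R1812W, and 14728 and 2916 CPM in WT. It lies within the span of Malat1 (positions 5795690 to 5802672, minus strand), a nuclear long noncoding RNA that was not analysed here, and its reads may belong to either. Committed precursors held Gm37376 at 18135 CPM in Fasn-R1812W and 14428 CPM in WT.

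**Figure D3:**
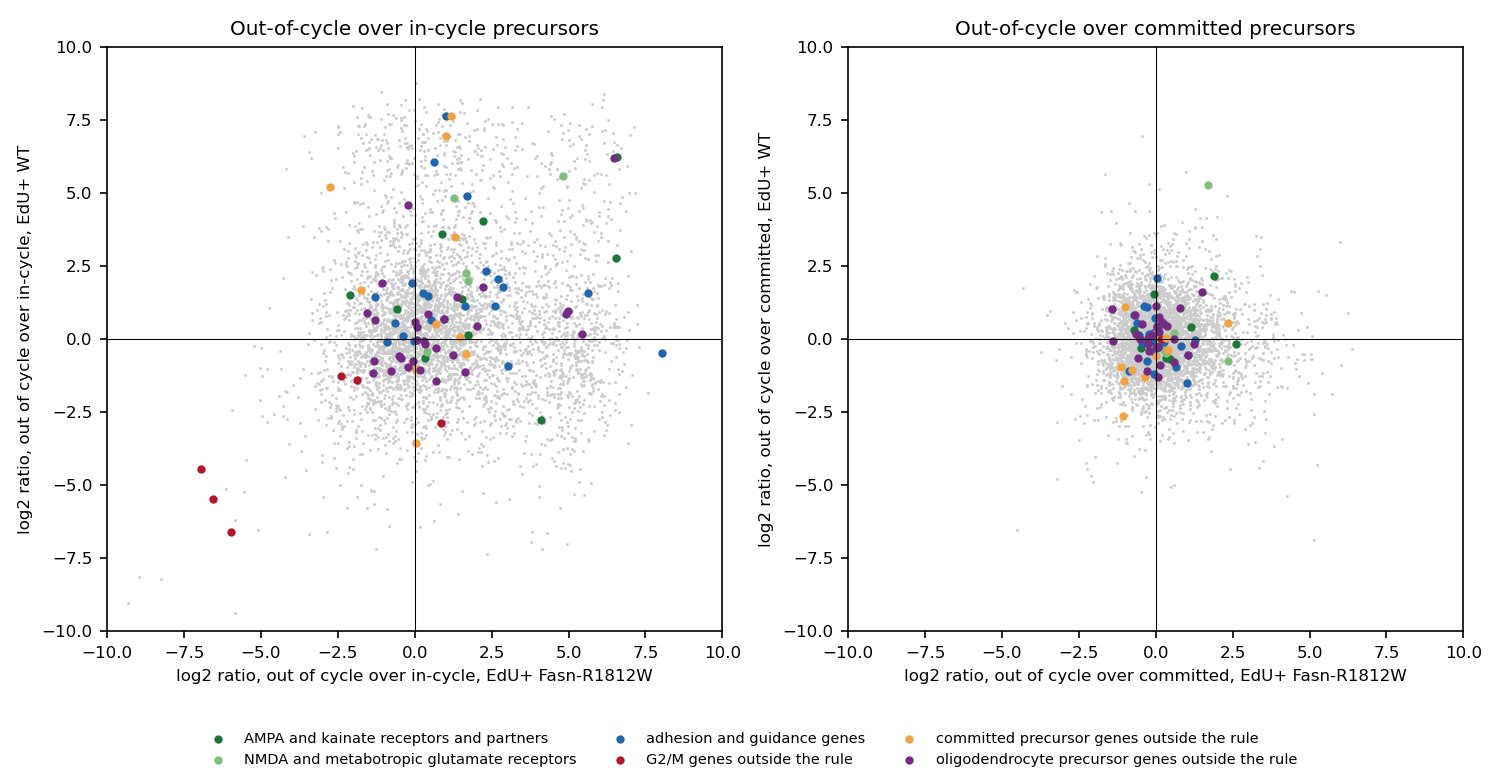
Each point is a gene, placed by its log2 ratio (prior 1 CPM) in EdU+ Fasn-R1812W on the horizontal axis and in EdU+ WT on the vertical axis, on the left for out-of-cycle over in-cycle and on the right for out-of-cycle over committed precursors. On the left, 5 of 6 tested G2/M genes lie at least 2-fold below 0 in both libraries and 4 of 10 AMPA and kainate genes at least 2-fold above it, and on the right most genes lie near 0.

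Out-of-cycle precursors were set against committed ones in the same way. The committed pools were 46 and 56 wells, so counts of calls are not matched in pool size to those against 12 in-cycle wells. Of 4461 genes tested, 170 (3.81%) were at least 2-fold higher and 122 (2.73%) lower out of cycle in both libraries, with medians over all genes of 0.11 in Fasn-R1812W and -0.04 in WT. Under TMM scaling the calls were 143 higher and 154 lower, so that 48.1% of calls were higher in place of 58.2%. Among the 781 widely read genes, 5 (0.64%) were higher and 4 (0.512%) lower. The 4 were Gpr17 and Neu4 of the rule, Bcas1 and Notch1. Bcas1 had 292 CPM out of cycle and 602 CPM in committed precursors of Fasn-R1812W, and 197 and 539 CPM in WT, and it was on in 35.1% and 52.2% of Fasn-R1812W and 22.7% and 39.3% of WT wells. Notch1, a receptor that holds precursors from maturing, had 243 and 509 CPM in Fasn-R1812W and 149 and 404 CPM in WT. The log2 ratios of Notch1 were -1.06 and -1.43.

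Of 11 tested genes of commitment outside the rule, 2 were lower out of cycle in both libraries and 0 higher, with medians of -0.35 in Fasn-R1812W and -0.57 in WT. The second of them, Fyn, a kinase of early myelination, had 191 CPM out of cycle and 403 CPM in committed precursors of Fasn-R1812W, and 102 and 639 CPM in WT. Of 18 tested lineage factors 0 were higher and 1, Myrf, was lower. Myrf had 5.65 and 35.2 CPM in Fasn-R1812W and 11.8 and 79.3 CPM in WT. Gria2, described above against in-cycle wells, had 2353 CPM out of cycle and 2714 CPM in committed precursors of Fasn-R1812W, and 1984 and 2006 CPM in WT. By the naming rule, 9 genes were higher out of cycle and 0 lower. Mtss1, a membrane-bending protein, was among the 9, with 327 and 100 CPM in Fasn-R1812W and 163 and 80.5 CPM in WT. The rule limits the share of reads in a single well of the higher pool, which small pools exceed more easily. For lower genes that pool was the committed one, of 46 and 56 wells against 191 and 163. In WT a single committed well held 20.9% of Bcas1 and 38.0% of Notch1 reads, above the limit. The 0 is therefore no measure of how many genes were lower, since the calls without the naming rule were 170 higher and 122 lower.

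Between genotypes, members differed little in the genes that most of them read. Of 8598 genes tested in Fasn-R1812W over WT members, 1882 (21.9%) were at least 2-fold higher and 1068 (12.4%) lower, with a median log2 ratio of 0.15. These genes were sparsely read: the median one was on in 7.85% of Fasn-R1812W and 5.52% of WT members, and a single well held 25.3% and 35.0% of its reads. Among the 781 genes on in at least 20% of members, 36 (4.61%) were higher and 21 (2.69%) lower. Of 373 genes on in at least 30%, 5 were higher and 8 lower, and of 89 on in at least 50%, 0 were in either direction. Shares on were larger in Fasn-R1812W for 729 of the 781, and for 712 after thinning.

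**Figure D4:**
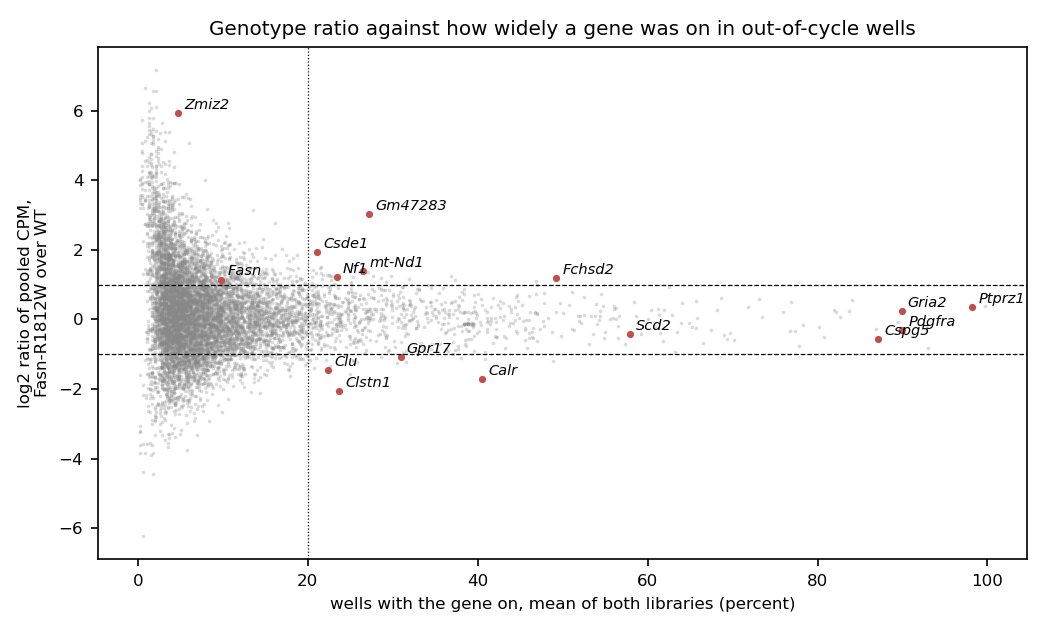
Each point is a gene, with the percent of members in which it is on, averaged over both libraries, on the horizontal axis and the log2 ratio of pooled CPM in Fasn-R1812W over WT members on the vertical axis. Ratios fan out to the left, where 1882 of 8598 genes are at least 2-fold higher and 1068 lower, and 0 of the 89 genes on in at least 50% of members are 2-fold apart.

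Among widely read genes, named here after their values were seen, several were lower in Fasn-R1812W members. Scrg1, a gene of oligodendrocyte precursors among other glia, had 537 CPM pooled with a well median of 49.2 CPM in Fasn-R1812W, and 1223 CPM with a well median of 321 CPM in WT. It was on in 45.0% and 52.8%. Clstn1, which encodes the transport adaptor calsyntenin 1, had 151 CPM in Fasn-R1812W and 629 CPM in WT, a log2 ratio of -2.05, and was on in 20.9% and 26.4%. Calr, the chaperone calreticulin, had 274 and 894 CPM and was on in 38.7% and 42.3%, but a single WT well held 35.9% of its reads. Gpr17 itself had 455 CPM in Fasn-R1812W and 971 CPM in WT members, from similar shares on of 29.3% and 32.5%. With members that had any committed or cycle gene on left out, its log2 ratio was 1.04, from few reads, since Gpr17 was then off in every well.

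Genes higher in Fasn-R1812W members, described next, were on in more wells as well. So were 729 of all 781 widely read genes, whatever their ratio, which makes this no trait of the higher genes. Fchsd2, an adaptor of the actin and endocytic machinery that overlaps the counted gene Atg16l2, had wells from 0 to 7179 CPM with a median of 390 CPM in Fasn-R1812W, and from 0 to 5693 CPM with a median of 0 in WT. It was on in 66.0% and 32.5%, at 891 and 389 CPM pooled. Vegfa, a vascular growth factor, had 490 CPM in Fasn-R1812W and 224 CPM in WT and was on in 44.5% and 30.1%. Nf1, a brake on Ras signalling whose introns hold the counted gene Omg, had 338 and 145 CPM and was on in 34.6% and 12.3%. In members with no committed and no cycle gene on, the log2 ratio of Nf1 was -0.41. Tcf12, a partner of bHLH factors, had 316 CPM in Fasn-R1812W and 132 CPM in WT. The wells of both libraries overlap for each of these genes.

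The largest ratio among widely read genes belonged to Gm47283, a protein-coding gene that GENCODE M21 places on the Y chromosome (positions 90784738 to 90816464, plus strand). That position does not show that its reads come from the Y chromosome alone, and this was not tested. It had 235 CPM in Fasn-R1812W and 28.1 CPM in WT members, a log2 ratio of 3.02, and was on in 47.6% and 6.75%. The same held outside the members, at 50.4% of other EdU+ wells in Fasn-R1812W and 10.7% in WT, and in the NeuN+ gate at 65.1% of Fasn-R1812W and 36.6% of WT wells. The Y-linked genes named in any case were read in members of both libraries. Ddx3y had 121 CPM in Fasn-R1812W and 135 CPM in WT, Eif2s3y 219 and 219 CPM, Kdm5d 100.01 and 35.3 CPM, and Uty 51.0 and 58.8 CPM.

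By the naming rule, which admits sparse genes, the largest ratios rested on few wells. Zmiz2, a coactivator of nuclear receptors, had 141 CPM in Fasn-R1812W and 1.33 CPM in WT members and was on in 17 Fasn-R1812W wells and 1 WT well. Gpx4, the peroxidase that protects membrane lipids, had 141 and 14.9 CPM and was on in 24 and 6 wells. The other 8 higher genes were E4f1, Camk4, Chmp1b, Neurl4, Nom1, Ifrd1, Prim2 and Metrn, with log2 ratios from 3.06 to 4.80. The 10 lower ones were Maneal, Clstn1, Ramp2, Stxbp5, Ndufa12, Ttc13, Celf4, Htra1, Il6st and Supt5, from -2.06 to -1.63. Without members that had any committed or cycle gene on, Maneal stood at 0.44 and Supt5 at 0.023. Il6st, the shared receptor chain gp130, had 23.8 CPM in Fasn-R1812W and 76.8 CPM in WT and was on in 8 and 15 wells.

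Signalling from PDGF and other growth factors was counted as a list. Of 20 tested genes of PDGF receptor signalling and its feedback, the ligand included, 6 were higher and 1 lower in Fasn-R1812W members, where 21.9% of all genes were higher and 12.4% lower. Their median log2 ratio was 0.82, beside 0.15 over all genes. The 6 were Pdgfa, Pik3ca, Akt1, Sos1, Shc1 and Spry4. Sos1, an exchange factor for Ras, had 147 CPM in Fasn-R1812W and 45.1 CPM in WT and was on in 20 and 11 wells. The feedback inhibitor Spry2 had 249 and 200 CPM and was on in 29.8% and 24.5%, and its relative Spry4 had 107 and 52.0 CPM. The median was 0.12 to 0.82 over the alternative settings. Of 12 growth factor receptors 0 were 2-fold apart, with a median of 0.37.

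Lipid genes were counted because the mutated enzyme makes fatty acids. Fasn itself (chromosome 11, positions 120805846 to 120824547, minus strand) had wells from 0 to 5265 CPM in Fasn-R1812W and from 0 to 6367 CPM in WT, with a median of 0 in both. It was on in 27 Fasn-R1812W members (14.1%) and 9 WT members (5.52%), at 168 and 75.4 CPM, and a single well held 29.1% and 53.8% of its reads. A substitution need not alter the transcript level, so Fasn does not check the genotype labels. Of 10 tested genes of fatty acid synthesis, 3 (Fasn, Mecr and Acsl3) were higher and 1 (Acly) lower, with a median of 0.17. These are near the 21.9% higher, 12.4% lower and median of 0.15 of all genes. Acly, which supplies acetyl-CoA for the pathway, had 57.9 CPM in Fasn-R1812W and 118 CPM in WT. Scd2, a desaturase, was the most widely read lipid enzyme described here, on in 61.3% of Fasn-R1812W and 54.6% of WT members at 1164 and 1561 CPM.

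Of 18 tested genes of cholesterol synthesis and sterol control, 9 were lower and 1 (Msmo1) higher in Fasn-R1812W members, with a median of -1.01 against 0.15 over all genes, where 12.4% of all genes were lower. Sqle, squalene epoxidase, had 55.4 CPM in Fasn-R1812W and 203 CPM in WT and was on in 8 and 9 wells, and Sc5d, a late enzyme of the pathway, had 34.5 and 133 CPM and was on in 12 and 9 wells. For Sqle and Sc5d the shares on therefore differed little while the pooled levels differed, and a single WT well held 36.5% and 25.6% of their reads. The median of the list was 0.64 when members with any committed or cycle gene on were left out, and the log2 ratio of Sqle was 0.98, so the direction did not hold in that smaller set.

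Transcripts encoded by the mitochondrion, which a nuclear preparation should hold in small amounts, were higher in Fasn-R1812W members for 7 of 9 tested genes. Their median log2 ratio was 1.24, and -0.095 in members with no committed and no cycle gene on. Over all genes tested between genotypes, 21.9% were higher and 12.4% lower, with a median of 0.15. The counts of all lists in this paragraph are to be read beside those shares. mt-Nd1, a subunit of respiratory complex I, had 1087 CPM in Fasn-R1812W and 416 CPM in WT and was on in 34.6% and 18.4%. Other EdU+ wells of the same libraries held mt-Nd1 at 1575 CPM in Fasn-R1812W and 851 CPM in WT, a difference in the same direction. Of 24 cytosolic ribosomal protein genes, 2 were higher and 2 lower, with a median of -0.16, and of 17 glycolysis genes 0 were higher and 1 lower. The part of carried-over cytoplasm in the genotype values was not tested.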

How the data were processed

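Single hippocampal nuclei were sorted and read by Smart-seq2. Per the labels, each library was 1 gate and genotype. The authors deposited, for every gene in every well, a raw count of reads that had not been normalized. Per the submitters' processing notes, Trimmomatic 0.36, STAR 2.5.3a and mouse build GRCm38.p5 were used. How reads were counted, with which annotation and whether by strand, is not given in the sources used here. Overlapping genes and close copies may therefore share reads. The tables held 25567 genes each, of which 25395 matched a symbol by identifier, with positions from GENCODE M21. There were 384 wells in a table but 382 nuclei in the stated design, with no label for empty wells. The 384 well index names were shared between the EdU+ libraries, and 0 kept wells were identical. Embryonic nuclei were not analysed here.

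Within each library, counts were pooled over the wells of a class and scaled to CPM of nuclear-encoded genes. Log2 ratios took a prior of 1 CPM, which pulls low genes toward 0. Tested genes had a pooled level of at least 10 CPM and a read in at least 10% of wells in either pool, and a call was a 2-fold difference. Wells are not replicates, and each genotype was 1 library, so no test was possible. Intervals are exact Poisson for counts and Clopper-Pearson for shares at 95%, and a count of 0 allows up to 3 reads. Thinned wells held 20000 reads, with a gene on at 3 or more. No doublet caller was run. Alternatives were to drop the 5% of wells with the most genes, a filter of 1000 genes and 50000 reads, other limits for a gene to be on, mean CPM per well, TMM factors from edgeR 4.0.16 in R 4.3.3, members with no committed and no cycle gene on, members without markers of other types, no filter on low values, and a prior of 0.1 CPM.

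The members, 43 gene lists of 705 genes and the tests were chosen with earlier results of these data known. Genes were named by a rule: by genotype and between states, up to 10 in each direction with the largest ratio, at 20 CPM, a read in 10% of wells, no well with over 20% of reads in the higher pool, and the same direction by pooled CPM, mean CPM and thinned shares, with predicted and mitochondrially encoded genes left out; the 15 genes most often on; all rule genes; up to 4 of each list; Fasn and 4 Y-linked genes. The limit of 20% of members for widely read genes, the genes named from it and the rule without Arl6ip1 were chosen after seeing the data. The ratio step was tested on simulated data. Python 3.11.15, numpy 2.4.6, pandas 2.3.3, scipy 1.17.1 and matplotlib 3.10.9 were used. Some genes are not reported here.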

Additional observations from a re-analysis of the deposited data

Results flagged for a closer look

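List medians had opposite signs in the 2 libraries for 8 of 26 lists with at least 5 genes tested out of cycle over in cycle, and for 14 of 26 out of cycle over committed. The 8 described here, 4 in each comparison, also lay at least 1 apart, and the difference between libraries was not tested. Differences are given as Fasn-R1812W minus WT on the log2 scale. Out-of-cycle over in-cycle precursors, growth factor receptors had medians of 0.00 in Fasn-R1812W and -1.28 in WT, a difference of 1.28; the first is close to 0, and under TMM scaling the medians were -0.47 and -1.32, both negative. Fatty acid synthesis had 0.48 and -0.82, a difference of 1.3, with 0.01 and -0.86 under TMM scaling. Phospholipid and sphingolipid synthesis had -0.44 and 1.35, a difference of -1.8, and genes of ER stress and the integrated stress response had -0.04 and 1.06, a difference of -1.11. These rest on 12 in-cycle wells in each library. Out-of-cycle over committed precursors, growth factor receptors had 0.25 in Fasn-R1812W and -0.75 in WT, a difference of 1.01. Glycolysis had 0.83 and -0.32, a difference of 1.16, and mitochondrially encoded genes had 1.01 and -0.20, a difference of 1.2. Markers of mature neurons had 0.73 and -0.38, a difference of 1.11.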

How the results depend on the processing

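No paired analysis was possible because each group was 1 library, and for the same reason no replicate could be left out. The shares of members stayed within their intervals under all 5 alternatives, at 47.9% to 52.7% in Fasn-R1812W and 44.6% to 49.1% in WT. Counts of genes 2-fold apart followed the gene filter, the depth and the number of wells. Between genotypes (1882 higher, 1068 lower) they were 611 and 294 after thinning, 3080 and 2361 over the 30 Fasn-R1812W and 45 WT members with no committed and no cycle gene on, 4213 and 2949 with no filter on low values, and 36 and 21 among genes on in at least 20% of members. Out of cycle over in cycle (753 higher, 269 lower), the higher genes were 1251 with the stricter well filter, 427 after thinning, 1241 without the 5% of wells with the most genes, 4830 with no filter on low values and 97 among genes on in at least 20%; the lower ones were 443 in members with no committed and no cycle gene on, 469 with no filter and 5 among genes on in at least 20%. Out of cycle over committed (170 higher, 122 lower), they were 327 higher and 197 lower with the stricter well filter, 81 and 60 after thinning, 1865 and 656 with no filter, and 5 and 4 among genes on in at least 20%; the lower ones were also 79 by mean CPM per well and 467 in members with no committed and no cycle gene on.

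Of 367 genotype medians of lists under alternatives, 47 had the opposite sign, in 25 of 38 lists, and 4 of the 47 were of lists whose log2 ratio was at least 1 in size; of 520 values of single genes, 16 had the opposite sign, and 7 of these were of genes at least 1 in size. Medians near 0 thus carry no direction: those of myelin genes ran from -0.63 to 2.65 and of fatty acid synthesis from -0.42 to 1.10. Of those at least 1 in size, in members with no committed and no cycle gene on, Maneal came to 0.44, Supt5 to 0.023, Sqle to 0.98, Nf1 to -0.41, mt-Co1 to -0.54, mt-Nd4 to -0.095 and Gpr17 to 1.04, and the medians of cholesterol synthesis to 0.64 and of mitochondrially encoded genes to -0.095. Thinning took the median of G2/M genes outside the rule to -0.054, and the stricter well filter that of immediate early genes to -0.082. The cause was not tested. The WT library, with fewer genes read per nucleus, limits every genotype value, and 12 in-cycle wells a library limit that comparison.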
